A study of Mus musculus with 10 samples.

Results

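The genes of MHC class I and class II antigen presentation were measured in medulloblastomas, malignant tumours of the cerebellum, and in cerebellum. The 10 genes are H2-Aa, H2-Ab1, H2-Eb1 and Cd74 of class II, H2-K1, H2-D1, H2-T23 and B2m of class I, and the peptide transporter genes Tap1 and Tap2. All probe sets that name 1 of these genes and no other gene were taken, whatever their values. They number 29 of 45137 on both chips, 27 of 22626 on the Affymetrix 430A chip and 2 of 22511 on the 430B chip, and cover 9 of the 10 genes. H2-T23 shares each of its probe sets with another gene name, and 5 probe sets that name a member together with another gene were kept apart.

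Every sample came from mice that carry CAGGS-CreER, a tamoxifen-activated Cre recombinase under a broadly active promoter, and R26-SmoM2, an activated form of Smoothened at the Rosa26 locus. Both tissues shared the tamoxifen injection at postnatal day 10, 1 mg per 40 g of body weight, so the cerebellum samples are no uninjected control, although the labels call that tissue wild type. Each chip had 3 medulloblastoma arrays and 2 cerebellum arrays, which the labels give as biological replicates. The strain, the age at collection and whether a tumour and a cerebellum sample came from 1 mouse were not given in the sources used here. The p-values below refer to variation among these arrays alone, and that variation could be technical in part.

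MHC class I molecules consist of a polymorphic heavy chain and beta-2-microglobulin, and show peptides from the cytosol to CD8 T cells. The TAP transporter carries those peptides into the endoplasmic reticulum. Class II molecules are pairs of an alpha and a beta chain that load peptides in endosomes after release of the invariant chain encoded by Cd74, and show them to CD4 T cells. In healthy brain, neurons carry little of either class, while microglia, the resident macrophages, can induce class II. Transcription of these genes rests on promoter boxes bound by RFX, CREB and NF-Y, with CIITA and NLRC5 as coactivators, and many of them respond to interferon.

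The promoters of 5 members are shown because probe sets of these genes were higher in the tumours, and they let the class II and class I control regions be set side by side. Each line holds the 170 bases before the start site, from RefSeq on GRCm38.p6, read from 5′ to 3′ on the gene's strand. The windows are chr17:34287824-34287993 on the minus strand for H2-Aa, chr17:34305697-34305866 on the plus strand for H2-Eb1, chr17:34000348-34000517 on the minus strand for H2-K1, chr17:35262924-35263093 on the plus strand for H2-D1 and chr2:122147517-122147686 on the plus strand for B2m. Capitals mark GATTGG, the core of the Y box that NF-Y binds, GAANNGAAA, an interferon-response core, and GGGATTCC, an NF-kB site, each on either strand.
H2-Aa: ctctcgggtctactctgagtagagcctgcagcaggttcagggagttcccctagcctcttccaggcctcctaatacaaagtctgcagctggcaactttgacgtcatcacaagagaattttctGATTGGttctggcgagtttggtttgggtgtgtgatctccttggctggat
H2-Eb1: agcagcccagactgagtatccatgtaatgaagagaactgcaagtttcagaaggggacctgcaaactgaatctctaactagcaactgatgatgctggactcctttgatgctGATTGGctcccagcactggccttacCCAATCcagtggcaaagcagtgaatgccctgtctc
H2-K1: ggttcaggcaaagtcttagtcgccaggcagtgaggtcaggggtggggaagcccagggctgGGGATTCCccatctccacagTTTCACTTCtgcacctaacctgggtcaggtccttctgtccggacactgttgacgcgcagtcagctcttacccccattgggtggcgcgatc
H2-D1: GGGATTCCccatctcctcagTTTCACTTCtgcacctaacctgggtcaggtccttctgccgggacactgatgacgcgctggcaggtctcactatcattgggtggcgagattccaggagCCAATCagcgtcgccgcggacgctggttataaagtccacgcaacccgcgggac
B2m: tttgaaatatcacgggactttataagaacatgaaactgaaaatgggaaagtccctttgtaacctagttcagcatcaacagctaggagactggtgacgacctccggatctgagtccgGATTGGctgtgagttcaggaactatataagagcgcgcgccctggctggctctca

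The Y box core lay 44 to 49 bases before the start in H2-Aa, 55 to 60 in H2-Eb1, 48 to 53 in H2-D1 and 49 to 54 in B2m, and H2-Eb1 held a second match. H2-K1 and H2-D1 held the NF-kB site and the interferon-response core at the same spacing. These letters had no match in the windows of H2-Aa, H2-Eb1 and B2m, but B2m held the interferon-stimulated response element in a longer form, in which the parts on both sides of the NN read GAAA, searched after the windows were seen, 130 to 139 bases before the start. That element was present in 2.98% of all promoters. Of the 7 members with a promoter in the table away from chromosome 18, all 7 held GATTGG within 250 bases before a start, H2-K1 at 1 of its 2 starts. It was present in 14.6% of all 32851 promoters of that length, GAANNGAAA in 6.31% and GGGATTCC in 0.889%. A match describes these letters only and is no measurement of binding. The reference is the C57BL/6J genome, and the MHC differs between strains.

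The class II genes were higher in the tumours, and H2-Aa, the alpha chain of the I-A molecule, had the largest differences among the members. On the 430A chip its probe set 1435290_x_at had a deposited intensity of 148, 211 and 161 in medulloblastomas 1, 2 and 3, and of 26.3 and 30.6 in cerebellum 1 and 2. All 3 tumours lay above both cerebellum samples, with a log2 fold change of 2.08 ± 0.20 (SE, limma adjusted p = 1.56e-05), taken on log2(intensity + 16). The probe set 1452431_s_at of the same gene had 53.4, 79.3 and 74.3 in the tumours, with 7.49 and 11.7 in cerebellum, again with no overlap and a difference of 1.72 ± 0.18 on the log2 scale (adjusted p = 2.53e-05). On the 430B chip 1438858_x_at had 246, 203 and 237 against 34.9 and 36.9, which is 2.23 ± 0.19 on the log2 scale (adjusted p = 3.13e-05). The second 430B probe set, 1443783_x_at, stayed between 2.24 and 9.15 on all arrays and was too dim for a test. H2-Aa was therefore called by probe sets on both chips, which are separate hybridisations but were not shown to hold separate animals. The suffixes x and s of the called probe sets mark probes that may match other transcripts. In pieces of tissue, more cells of a type and more RNA per cell cannot be told apart.

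H2-Ab1, the beta chain that pairs with H2-Aa, differed in size between its probe sets. With 1450648_s_at the tumours read 22.7, 68.1 and 21.5 and the cerebellum samples 5.29 and 5.66, a difference of 1.21 ± 0.29 on the log2 scale (adjusted p = 0.00797). Tumours 1 and 3 were close to each other and tumour 2 was 3.08 times their mean. The brighter 1451721_a_at read 33.5, 61.1 and 26.2 against 22.3 and 25.2, so tumour 3 lay just above cerebellum 2, and its log2 fold change of 0.45 ± 0.23 did not pass the test (adjusted p = 0.159). The third, 1425477_x_at, read 21.0, 34.6 and 9.22 against 2.46 and 4.82 and fell under the intensity limit. All 3 probe sets had their highest value in tumour 2.

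H2-Eb1, the beta chain of the I-E molecule, read 45.9, 92.7 and 49.3 in the tumours, against 11.1 and 18.5. The groups did not overlap, and the log2 fold change was 1.31 ± 0.24 (adjusted p = 0.00129). Tumour 2 was again the highest, 1.95 times the mean of the others.

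Cd74, the invariant chain, showed the widest spread between tumours among the tested members. It read 65.4, 268 and 64.6 in medulloblastomas 1, 2 and 3 and 23.3 and 32.6 in cerebellum 1 and 2. Tumours 1 and 3 were almost equal, and tumour 2 was 4.13 times their mean. The log2 fold change was 1.49 ± 0.44 (adjusted p = 0.0238), and 0.89 without medulloblastoma 2, where the call held (adjusted p = 9.05e-04). It was lost without cerebellum 1 (1.34, adjusted p = 0.133) and without cerebellum 2 (1.65, adjusted p = 0.0719).

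**Figure D1:**
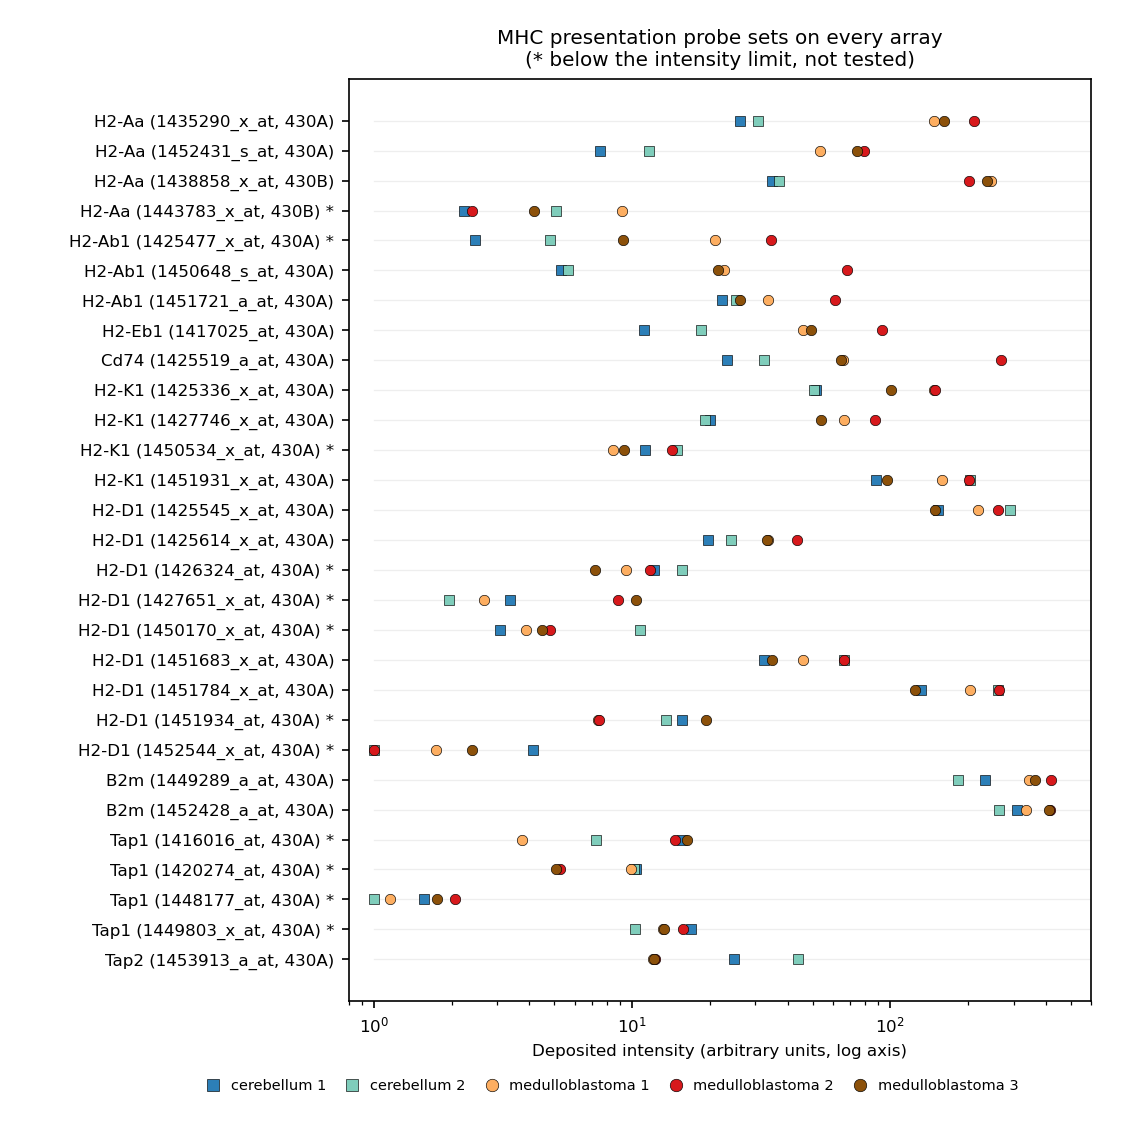
Deposited intensity (log axis) of the 29 probe sets that name 1 member gene, with cerebellum arrays as squares and medulloblastoma arrays as circles, 1 point per array. In 8 of the 9 class II probe sets all tumour points lie to the right of the cerebellum points, the dim H2-Aa 1443783_x_at being the exception, with medulloblastoma 2 of 430A at 268 for Cd74 against 65.4 and 64.6, while several H2-D1 probe sets overlap. Asterisks mark the 12 probe sets below the intensity limit, and tumour numbers do not match between the chips.

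Among the class I heavy chains, H2-K1 depended on the probe set. 1425336_x_at read 147, 149 and 101 in the tumours, with 51.5 and 50.7 in cerebellum, a difference of 1.13 ± 0.20 on the log2 scale (adjusted p = 0.00141). 1427746_x_at read 66.3, 87.3 and 54.1 against 20.1 and 19.2, with 1.24 ± 0.18 (adjusted p = 3.34e-04). In both, the cerebellum samples were nearly equal and lay below every tumour. The brightest of the gene, 1451931_x_at, read 158, 201 and 96.9 against 88.1 and 203, so the groups overlapped over their whole range (0.10 ± 0.34, adjusted p = 0.856). The dim 1450534_x_at lay between 8.43 and 14.9 and was not tested.

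H2-D1, a heavy chain gene on the other side of the class II genes from H2-K1, had 9 probe sets, of which 4 were tested. 1425614_x_at read 33.5, 43.5 and 33.3 in the tumours, with 19.7 and 24.1 in cerebellum, and its log2 fold change of 0.47 ± 0.15 passed narrowly (adjusted p = 0.0363). That call was lost with no filter on low values (adjusted p = 0.0602), with no intensity trend (adjusted p = 0.0536) and without cerebellum 1, cerebellum 2, medulloblastoma 1 or medulloblastoma 2. The other 3 overlapped between the groups, with 218, 260 and 149 against 153 and 291 for 1425545_x_at, 46.0, 66.1 and 34.9 against 32.3 and 66.4 for 1451683_x_at, and 204, 263 and 125 against 131 and 261 for 1451784_x_at. Their log2 fold changes were -0.05, 0.02 and 0.02, with standard errors between 0.25 and 0.33. The 5 dim probe sets lay between 1.00 and 19.3.

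The 4 class I heavy chain probe sets without a call, 1 of H2-K1 and 3 of H2-D1, were looked at together after their values were seen. They shared a grouping of the arrays, although the order within the low and the high arrays varied. Cerebellum 1 and medulloblastoma 3 were low, medulloblastoma 1 was intermediate, and medulloblastoma 2 and cerebellum 2 were high. Cerebellum 2 was 1.90 to 2.30 times cerebellum 1 in them, and a ratio of 1.90 or more was found in 1.37% of the 16969 probe sets tested on 430A. The class I loci are close in sequence, and the suffix x of all 7 tested heavy chain probe sets marks probes that may match other transcripts. All 7, those called higher included, are therefore uncertain as measures of a single gene, and the 4 are not independent of each other.

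B2m, the light chain shared by all class I molecules, lies outside the MHC on chromosome 2. 1449289_a_at read 345, 420 and 365 in the tumours, with 233 and 183 in cerebellum, a difference of 0.81 ± 0.20 on the log2 scale (adjusted p = 0.0102), and 0.65 with no call without cerebellum 2 (adjusted p = 0.141). 1452428_a_at read 336, 415 and 412 against 310 and 263, with 0.41 ± 0.20 (adjusted p = 0.149). Every tumour lay above both cerebellum samples in each probe set. The second passed the test after quantile normalization (0.68, adjusted p = 0.0277).

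H2-T23 encodes Qa-1, a nonclassical class I molecule, and both of its probe sets also name the pseudogene H2-T-ps, so neither can be assigned to it alone. 1449556_at read 39.4, 57.2 and 38.5 in the tumours, with 24.2 and 20.9 in cerebellum (0.65 ± 0.17, adjusted p = 0.0128). 1419658_at lay between 5.62 and 7.19 and was not tested. Both are given beside the members after their values were seen, as is the next. A probe set that names H2-K1 and H2-D1 together, 1424948_x_at, read 56.8, 55.5 and 41.0 against 20.9 and 19.8 (0.88 ± 0.16, adjusted p = 0.00155). The remaining 2 shared probe sets lay between 5.05 and 17.8.

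Of the transporter genes, Tap2 was tested and was lower in the tumours, with 12.1, 12.3 and 12.1 against 24.8 and 43.9, a difference of -0.81 ± 0.17 on the log2 scale (adjusted p = 0.00376). The tumour values were nearly equal and lay under the limit of 15.9 units that a probe set's mean over all arrays had to pass on 430A, while the cerebellum samples differed 1.77-fold from each other. Without cerebellum 2 the log2 fold change was -0.53 and the call was lost (adjusted p = 0.0652). All 4 probe sets of Tap1, the partner subunit, were below the limit, between 1.00 and 16.9 over all arrays, with overlapping groups in 3 of them. In 1420274_at the tumours read 9.91, 5.25 and 5.06 and the cerebellum samples 10.4 and 10.2. With no filter on low values none of the 4 passed limma's test.

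Over all members, 17 of 29 probe sets passed the intensity limit. On 430A, 9 of 16 were higher and 1 was lower, against 13.1% higher and 19.0% lower of all 16969 probe sets tested. On 430B the 1 tested was higher, against 7.85% higher and 9.77% lower of 16883. Of all calls on 430B 44.6% were higher, and 29.3% with that chip rescaled by the 100 probe sets it shares with 430A, which moved the median over all its probe sets from -0.02 to -0.23. H2-Aa had 2.02 there and kept its call. Of the class II probe sets 6 of 7 were called, of the class I probe sets 4 of 9, with median log2 fold changes of 1.49 and 0.41 against -0.05 over all of 430A and -0.02 over all of 430B. In 11 of the 16 tested on 430A all tumours lay above both cerebellum samples, which held for 23.8% of all probe sets tested there, and in the 1 tested on 430B, against 20.8%. These counts describe the probe sets that passed, and 1452431_s_at of H2-Aa and 1450648_s_at of H2-Ab1 passed through their tumour values alone, with both cerebellum arrays under the limit, and Tap2 through its cerebellum values alone. H2-Eb1 had a cerebellum mean of 14.8, also under the 430A limit of 15.9, with 11.1 and 18.5 on its cerebellum arrays. Without cerebellum 2, 6 member probe sets were called on 430A in place of 10. With no filter, 1 of the other 12, the dim probe set of H2-Ab1, was called (0.88, adjusted p = 0.0281).

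**Figure D2:**
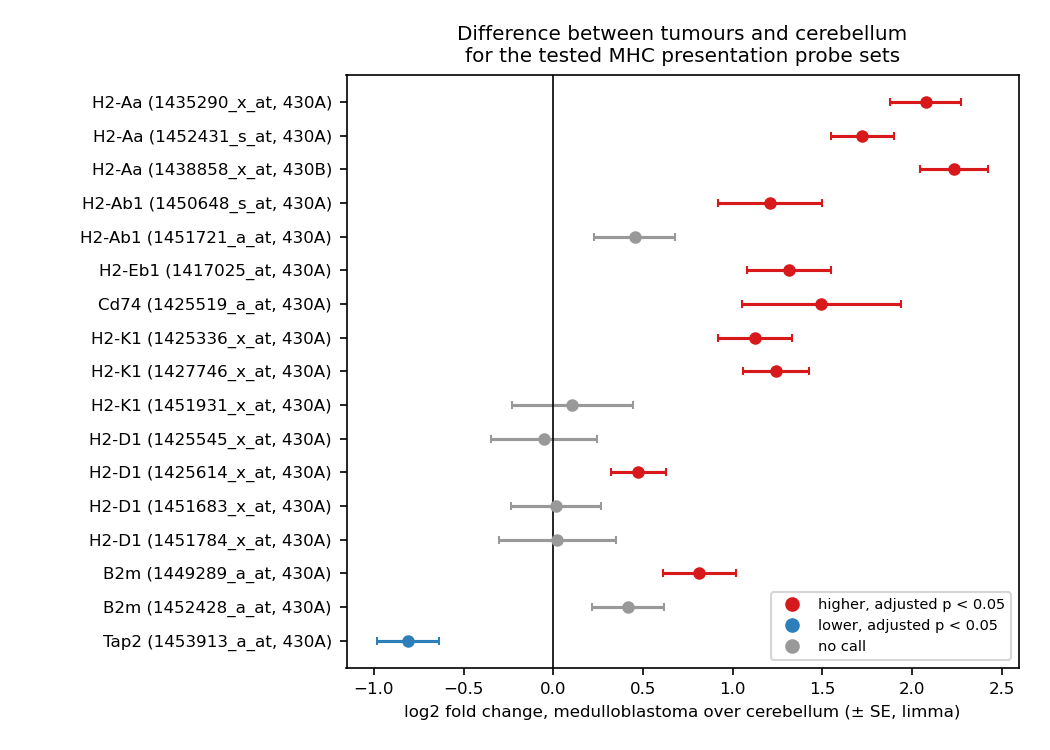
Log2 fold change of medulloblastoma over cerebellum with its standard error (limma, 3 tumours and 2 cerebellum arrays per chip) for the 17 tested probe sets. H2-Aa lies furthest to the right, between 1.72 and 2.23, the H2-D1 probe sets lie between -0.05 and 0.47, and Tap2 is the 1 probe set called lower, at -0.81.

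Medulloblastoma 2 of the 430A chip had the highest value of the 3 tumours in 16 of the 16 tested members. Over all 16969 tested probe sets of that chip it was the highest in 38.4%. After quantile normalization the members' count was 14 of 16, against 39.2% of all, and with equal array medians 13 of 16, against 35.1%. The excess of tumour 2 over the mean of tumours 1 and 3 was wider in class II, 1.24 to 4.13 times, than in class I, 1.11 to 1.63 times, and absent in Tap2 at 1.02. The pattern was seen in the values first, and no test was made of it, since it rests on 1 array and many of the probe sets share sequence. On 430B the H2-Aa probe set had no such excess in any tumour, with 246, 203 and 237.

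**Figure D3:**
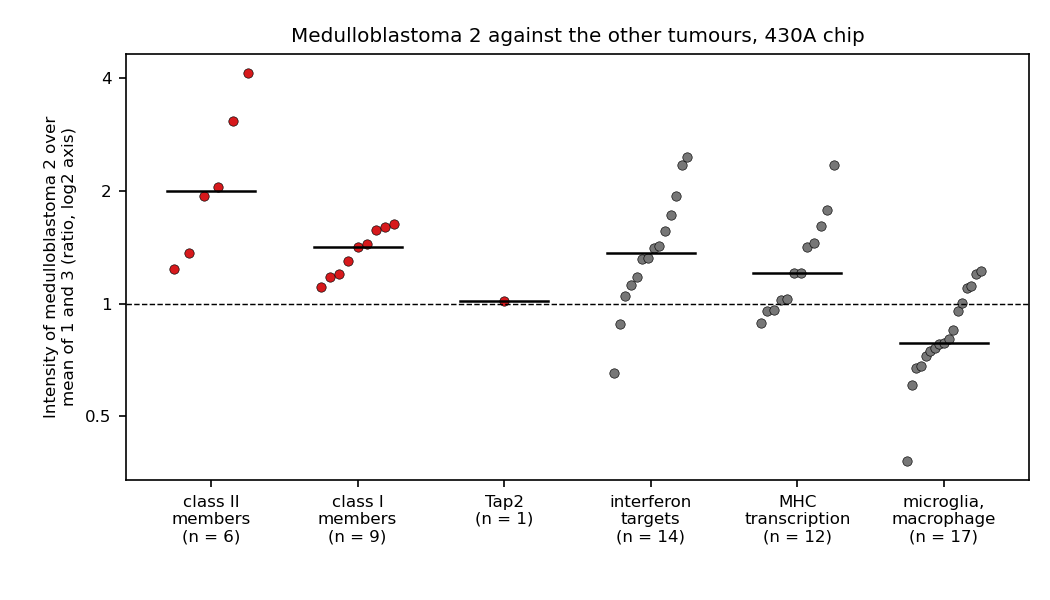
Intensity of medulloblastoma 2 divided by the mean of medulloblastomas 1 and 3 on 430A (log2 axis), 1 point per tested probe set of a member or per tested gene of a list, with the median as a bar. The median ratio is 2.0 for class II members, 1.42 for class I members, 1.37 for interferon targets and 0.785 for microglia and macrophage markers.

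Markers of microglia and macrophages, which can carry both classes, were also higher in the tumours. Of 17 tested markers 9 rose and none fell, against 10.7% and 16% of 14702 genes, with a median log2 fold change of 1.06. Cd68 and Ptprc, 2 of the 9, passed the intensity limit through their tumour values alone. In cerebellum Fcgr3, also of the 9, read 16.7 and 9.28, the second value being under that limit. The complement genes C1qb (2.37 ± 0.23), C1qc (2.35 ± 0.21) and C1qa (2.13 ± 0.20) and the adaptor Tyrobp (2.04 ± 0.21) had the largest differences (adjusted p from 8.61e-06 to 2.48e-05). Their summed intensity over the 17 probe sets was 691 and 602 in the cerebellum samples and 1810, 1474 and 1681 in medulloblastomas 1, 2 and 3. Csf1r (0.05), Trem2 (-0.18) and P2ry12 (-0.29), named after their values were seen, were not called, nor was Laptm5 (0.04), of which 1 of 4 probe sets was higher. Tumour 2 was the highest tumour in 3 of the 17, against 39.7% of all genes of 430A, and had the lowest sum of the 3. The tested class II probe sets of 430A had tumour 2 as the highest, and either order rests on 1 array. The part of these cells in the members' differences was not tested.

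Markers of other cells that present antigen or answer to it did not rise. Of 4 tested dendritic cell markers 2 fell, Zbtb46 (-1.83 ± 0.20) and Flt3 (-0.54 ± 0.15), and of 4 B cell markers none was called by limma, nor lay at an unadjusted p below 0.05 (0 of 4). The B cell markers with the smallest p were Pax5 (-0.37, adjusted p = 0.177) and Blk (-0.30, adjusted p = 0.253). Of 4 T cell markers only Thy1, which neurons also express, was called (-3.26 ± 0.24), and Cd4 lay between 1.00 and 8.35 on every array. Of 7 endothelial markers 1 fell, Flt1 (-0.46 ± 0.14, with -0.95 in another of its probe sets), and 2 were lower at an unadjusted p below 0.05. Summed over the tested markers on 430A, dendritic cell markers read 63 to 86.9 in tumours and 173 to 179 in cerebellum, B cell markers 92.6 to 129 and 117 to 138, T cell markers 90.0 to 103 and 294 to 480, and endothelial markers 204 to 272 and 236 to 248. The T cell sums differed mainly through Thy1, with 206.45 and 396.53 in cerebellum and 16.96, 15.65 and 14.33 in tumours 1, 2 and 3. The other tested T cell markers, Cd3d (0.01), Cd8a (-0.04) and Cd3e (-0.12), had no call. The dendritic cell sums differed in large part through Zbtb46, with 75.65 and 90.72 in cerebellum and 5.13, 16.19 and 15.89 in the tumours. Ccr7 and single probe sets of Cd4, Cd8a, Cd28 and Fcer2a, among others, were at or near the floor of 1.

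**Figure D4:**
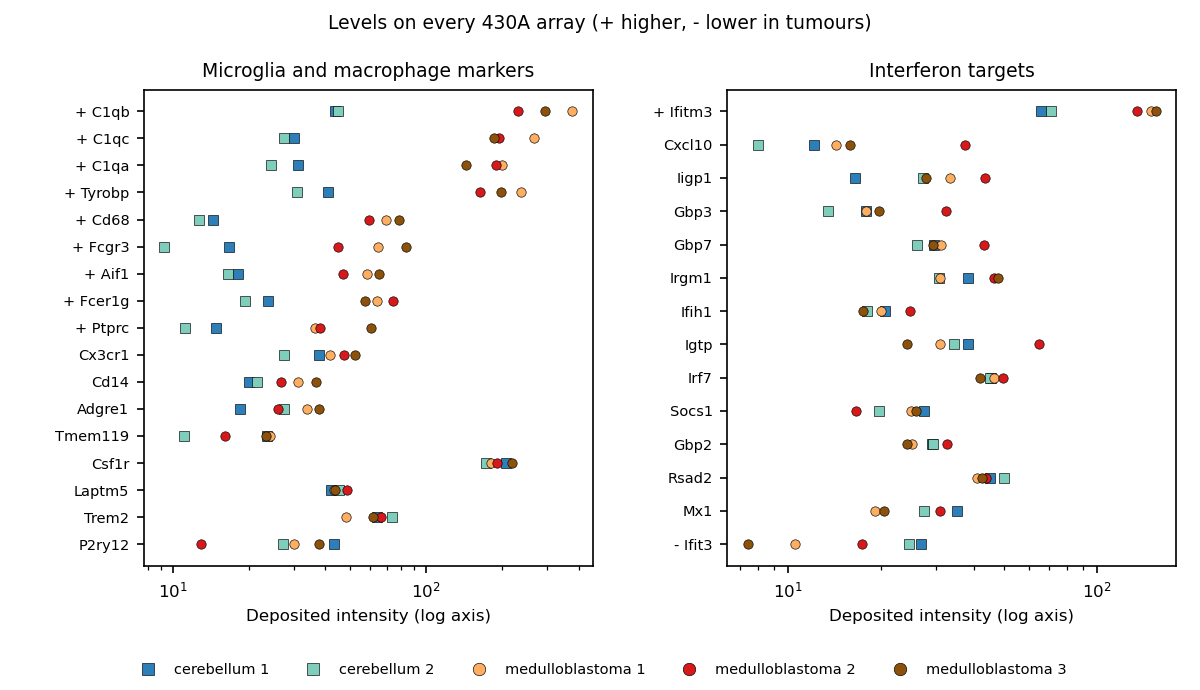
Deposited intensity (log axis) of the tested microglia and macrophage markers (17 genes) and interferon targets (14 genes) on every 430A array, with a plus for genes called higher and a minus for genes called lower in the tumours. C1q genes and Tyrobp separate the groups with tumour 1 at the top of C1qb (378), whereas Cxcl10 separates tumour 2 (37.3) from tumours 1 and 3 (14.3 and 15.8).

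Over all genes 10.7% were higher and 16% lower, and the lists of genes that act beside the members are set against these shares. Of 8 class I loading genes 2 rose, the proteasome activator subunit Psme1 (0.96 ± 0.19, adjusted p = 0.00244) and the immunoproteasome subunit Psmb8 (0.54 ± 0.14, adjusted p = 0.0102), and none fell. Psmb8 passed the intensity limit through its tumour values alone, with 11.2 and 9.67 in cerebellum. Their median log2 fold change was -0.08, with -0.05 over all genes. Among 4 other class I genes Cd1d1, which presents lipids, rose (1.83 ± 0.16, adjusted p = 9.71e-06). Of 8 class II loading genes the lysosomal proteases Ctss (1.48 ± 0.24) and Ctsd (1.38 ± 0.21) rose and Ctsb (-0.63 ± 0.20) fell, although of its 5 tested probe sets 3 were called and another had -0.02. Ctss cleaves the invariant chain, and its levels were 443, 337 and 580 against 161 and 137, with tumour 2 the lowest tumour. H2-DMa, which exchanges peptides on class II, was named after its values were seen and read 13.9, 22.9 and 17.3 against 19.3 and 15.5 (0.02 ± 0.16, adjusted p = 0.943).

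Of 13 genes of MHC transcription 4 rose and none fell, against the same 10.7% and 16% of all genes. They were the NF-Y subunits Nfya (0.84 ± 0.18) and Nfyb (0.77 ± 0.25), the interferon regulatory factor Irf8 (0.72 ± 0.22) and Creb1 (0.58 ± 0.17), with adjusted p between 0.00440 and 0.0341. No gene of the list was called higher without cerebellum 1, and 2 were without cerebellum 2 and also without medulloblastoma 3. Both tested probe sets of Nfyb and of Irf8 were called, but 1 of 3 for Nfya, whose others had -0.05 and 0.39, and 1 of 4 for Creb1, whose others lay between 0.02 and 0.90. In the probe set counted for its gene, Irf8 read 25.3, 57.8 and 39.6 in the tumours, with 15.8 and 19.8 in cerebellum. The value of 15.8 lay just under the 430A intensity limit of 15.9. The other Irf8 probe set passed that limit through its tumour values alone, with 12.98 and 9.81 in cerebellum. The coactivator genes Ciita and Nlrc5 were named after their values were seen, and had -0.20 ± 0.15 (adjusted p = 0.382) and 0.15 ± 0.20 (adjusted p = 0.686). Tumour 2 was the highest tumour in 8 of the 12 genes measured on 430A, against 39.7% of all genes of that chip.

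Calls among the interferon genes were 1 of 9 and 2 of 16, to be read against 10.7% higher and 16% lower of all genes. Of 9 receptor and signalling genes none rose (0 also at an unadjusted p below 0.05) and the kinase Jak1 fell (-0.80 ± 0.19, adjusted p = 0.00829). A second-chip probe set of the receptor gene Ifnar2, 1440169_x_at, which did not stand for its gene in this count, was higher (0.69, adjusted p = 0.0136). It passed the 430B intensity limit of 11.3 through its tumour values alone, with 6.66 and 10.8 in cerebellum. The other 2 tested probe sets of Ifnar2 had 0.02 and 0.32 and no call. Of 16 interferon targets the membrane protein Ifitm3 rose (0.94 ± 0.18, adjusted p = 0.00210) and Ifit3 fell (-0.60 ± 0.17, adjusted p = 0.0167), with a median of 0.03. In 11 of the 14 targets measured on 430A tumour 2 was the highest tumour, against 39.7% of all genes of that chip. The target Ifit2 fell under the intensity limit and had another order, with 32.1, 6.53 and 61.1 in the tumours and 4.61 and 2.67 in cerebellum, so tumour 2 was the lowest. The chemokine gene Cxcl10 read 14.3, 37.3 and 15.8 in the tumours, with 12.1 and 7.95 in cerebellum, and the GTPase gene Igtp 31.1, 65.0 and 24.3 against 38.2 and 34.3. Both were named after their values were seen, and neither was called.

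Of the members, 8 lie on chromosome 17 in the order H2-K1, Tap1, Tap2, H2-Ab1, H2-Aa, H2-Eb1, H2-D1 and H2-T23. Between the first and the last, a stretch chosen after values were seen, 70 other genes were tested, of which 17 rose and 7 fell. That is 24.3% and 10%, against 10.7% and 16% of all genes, and the median log2 fold change was 0.14. The neighbours that rose most were Ddah2 (2.44), Tubb5 (1.85) and Tcf19 (1.77), and Atp6v1g2 (-3.02) fell most, so opposite directions were found within the same stretch.

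Tissue markers followed the labels, with 4 of 5 markers of granule neuron precursors higher in the tumours, Zic1 being lower (-1.19), and all 4 of mature granule neurons lower. Among them, Gli1 passed the intensity limit through its tumour values alone and Grin2c through its cerebellum values alone. Atoh1, the factor of granule neuron precursors, read 454 to 553 in tumours and 16.2 to 27.7 in cerebellum, and Gabra6 of granule neurons 15.2 to 52.2 and 3004 to 3020. Array medians lay between 33.3 and 35.9 on 430A and between 22.5 and 24 on 430B. Over the 100 probe sets that both chips hold, tumours 1, 2 and 3 of 430A deviated most like tumours 2, 3 and 1 of 430B (r of 0.83, 0.86 and 0.73), so tumour numbers were not matched between the chips.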

How the data were processed

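The deposited table of each chip holds 1 linear intensity per probe set and array. Which program the authors used, and how they scaled the arrays or treated background, is not given in the sources used here. Per the labels' protocols, RNA was isolated with Trizol and labelled as biotinylated cRNA. No detection measure was used, and the number of arrays limits the precision.

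Intensities were transformed to log2(value + 16), which understates the change of dim probe sets. The 25% with the lowest mean log2 over all arrays of a chip were not tested. Each chip was fitted alone with limma 3.58.1 in R 4.3.3 (lmFit, eBayes with an intensity trend, two-sided, Benjamini-Hochberg over the chip, adjusted p below 0.05). The fit was tested on simulated data. Probe sets were named with GEO's annotation of the chips, updated by Entrez ID.

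Genes outside the members had 1 tested probe set each, from 430A where possible, with _s_at and _x_at sets last and brighter sets first. All member probe sets and up to 4 called genes per list are named, or the 2 with the smallest p where none passed. Members and lists were chosen with earlier results of these data known. Alternatives were pseudocounts of 1 and 64, quantile normalization, equal medians, no filter or a 50% filter, no trend, a replicate block, each array left out, adjusted p below 0.01, the brightest probe set per gene, and 430B rescaled by the shared probe sets.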

Additional observations from a re-analysis of the deposited data

How the results depend on the processing

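Every call among the members rests on 3 tumours and 2 cerebellum arrays, and where 1 cerebellum array was left out the spread came from the tumour arrays, with the remaining cerebellum sample taken to vary as they do. Pseudocounts of 1 and 64 changed no member's call or direction. Among uncalled probe sets the sign of H2-D1 1425545_x_at turned with quantile normalization (0.13), equal array medians (0.0013) and the replicate block (0.16). Leaving out 1 array, it ranged from -0.48 to 0.38, 1451683_x_at from -0.37 to 0.40 and 1451784_x_at from -0.43 to 0.48, all of H2-D1, and H2-K1 1451931_x_at from -0.43 to 0.64. With the lower 50% of probe sets left out, 4 member probe sets had no value. The replicate numbers pair only 2 samples per tissue, with r = 0.096 on 430A and 0.0998 on 430B between their differences. These correlations cannot tell whether samples of the same number share an animal or a batch. Medulloblastoma 3 carries no weight in the block fit, which called H2-Ab1 1451721_a_at (0.64, adjusted p = 0.00400) and changed no other member's call.

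Leaving out 1 array in turn, member probe sets called on 430A ranged from 6 to 10. Over all probe sets, 1275 to 2806 were higher and 2057 to 3710 lower on 430A, and 531 to 2603 higher and 954 to 2242 lower on 430B, and 875 to 1799 genes were higher and 1433 to 2507 lower, against 2231, 3229, 1326, 1649, 1575 and 2358 with every array. Genes higher ranged from 1 to 2 for class I loading and for other class I genes, and from 0 to 4 for MHC transcription. Genes lower ranged from 0 to 1 for class II loading, interferon signalling, interferon targets, B cell and endothelial markers, and from 1 to 2 for dendritic cell markers. At an adjusted p below 0.01, 1432 probe sets were higher on 430A, 699 higher and 1069 lower on 430B, and 986 genes higher, while 1 class I loading gene and 1 MHC transcription gene were higher and 1 dendritic cell marker was lower, with 0 lower for class II loading, interferon targets and endothelial markers. With the lower 50% left out, 1 class I loading gene and 2 MHC transcription genes were higher, 1 dendritic cell marker was lower, and 0 interferon targets and 0 endothelial markers. Quantile normalization gave 0 lower class II loading genes. With the replicate block, 3 interferon targets were higher and 2 lower, 1 microglia marker was lower and 0 endothelial markers were. On 430B 2822 probe sets were higher with the block and 672 with the shared probe sets as the scale. Dimmer probe sets, such as those of Tap1, are limited by the unknown background.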
